A study of Mus musculus with 42 samples.

Results

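The circadian clock genes described here were 10 transcripts chosen by gene symbol, namely the period genes Per1, Per2 and Per3, the cryptochromes Cry1 and Cry2, the activators Clock and Npas2, the nuclear receptors Nr1d1 and Nr1d2, and the output factor Dbp. All 10 were present once among the 37410 genes measured in the lateral habenula (LHb) and once among the 40905 genes measured in 5 other regions. Polyadenylated RNA of fresh mouse brain tissue was sequenced in 42 libraries, 3 in each of 14 groups. Mice had undergone chronic restraint stress (CRS), in which an animal is repeatedly confined in a narrow tube, or were naive. The study's design text places a forced swim test (FST) 2 days before the mice were killed, a test that records the time spent immobile in water. LHb libraries were divided by that score into naive low (under 50 s), naive high (50 to 80 s), CRS low (50 to 110 s) and CRS high (over 110 s), so CRS low and naive high overlap in score range. The other regions were the medial prefrontal cortex (mPFC), the nucleus accumbens (NAc), the lateral hypothalamus (LH), the ventral tegmental area (VTA) and the ventral hippocampus (vHippo), with 3 CRS and 3 naive libraries apiece and no FST class. Strain, sex, age, hour of tissue collection, the number of animals per library and whether libraries of different regions share animals are not given in the sources used here, so the p-values measure the spread between these libraries, which may be partly technical.

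The mammalian clock is a delayed negative feedback loop. CLOCK, or its relative NPAS2, pairs with BMAL1 (gene Arntl) and binds E-box sequences to activate the Per and Cry genes, whose proteins then repress that pair. The same activators drive Nr1d1 and Nr1d2, which encode the heme-binding repressors REV-ERBα and REV-ERBβ that act on ROR elements in Arntl, and Dbp, whose protein binds D-box sequences in further output genes. Per1 and Per2 also respond to glucocorticoids and to neuronal activity, and NPAS2 is known as a CLOCK counterpart of the forebrain. Because these transcripts cycle over the day, a level in tissue taken at 1 time per animal does not separate amplitude, phase and mean.

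Gene bodies are given on GRCm38, the build whose GENCODE M21 gene starts equal 99.5% of those in the 5-region table. Per1 lies at chr11:69095217-69109960 (+), Per2 at chr1:91415982-91459324 (-) and Per3 at chr4:151003652-151044665 (-). Cry1 lies at chr10:85131700-85185064 (-) and Cry2 at chr2:92403646-92434043 (-). Clock spans chr5:76209868-76304792 (-) and Npas2 chr1:39193731-39363236 (+). Nr1d1 spans chr11:98767932-98775333 (-), Nr1d2 chr14:18204054-18239127 (-) and Dbp chr7:45705088-45710203 (+). Exons of Nr1d1 overlap those of Thra on the opposite strand over 263 bases, exons of Dbp overlap Sphk2 over 539 bases and exons of Cry2 overlap the transcript D930015M05Rik over 295 bases. Whether counting used strand is not given in the sources used here, so reads in those stretches cannot be told apart.

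RefSeq promoter windows (GRCm38.p6, 250 bases before to 50 after a gene's start) were held for 9 of the 10 genes, in 12 windows. Each window was searched on both strands for the E-box CACGTG, the E-prime box CACGTT, the D-box as TTATGTAA or TTACGTAA, the ROR element TAGGTCA and the cyclic AMP element TGACGTCA. No 2 of these motifs overlapped in the windows of the clock genes. Over all 32851 windows, 7.15% held the E-box, 4.68% the E-prime box, 1.06% the D-box, 2.61% the ROR element and 1.79% the cyclic AMP element. An E-box was found for Per1 and Cry1, an E-prime box for Cry1, Cry2 and Nr1d1, and a D-box for Per3, which held it at 2 places. The 3 windows with an E-box or a D-box are shown because these are the elements of the loop, with the motif letters in capitals (for Cry1 both AACGTG, the reverse complement of the E-prime box, and CACGTG):
Per1 (chr11:69098699-69098998, +): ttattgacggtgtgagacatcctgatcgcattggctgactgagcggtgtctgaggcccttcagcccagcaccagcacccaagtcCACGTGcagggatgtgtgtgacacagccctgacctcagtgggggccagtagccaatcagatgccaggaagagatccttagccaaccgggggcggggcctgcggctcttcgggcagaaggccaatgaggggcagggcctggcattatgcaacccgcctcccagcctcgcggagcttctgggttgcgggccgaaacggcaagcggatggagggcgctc
Cry1 (chr10:85185005-85185304, -): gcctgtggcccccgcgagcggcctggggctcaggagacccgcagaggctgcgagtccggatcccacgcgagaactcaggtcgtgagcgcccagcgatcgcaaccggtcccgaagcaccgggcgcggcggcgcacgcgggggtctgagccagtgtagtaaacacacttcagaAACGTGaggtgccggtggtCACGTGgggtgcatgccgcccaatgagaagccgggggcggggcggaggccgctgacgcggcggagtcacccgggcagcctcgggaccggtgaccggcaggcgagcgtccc
Per3 (chr4:151044616-151044915, -): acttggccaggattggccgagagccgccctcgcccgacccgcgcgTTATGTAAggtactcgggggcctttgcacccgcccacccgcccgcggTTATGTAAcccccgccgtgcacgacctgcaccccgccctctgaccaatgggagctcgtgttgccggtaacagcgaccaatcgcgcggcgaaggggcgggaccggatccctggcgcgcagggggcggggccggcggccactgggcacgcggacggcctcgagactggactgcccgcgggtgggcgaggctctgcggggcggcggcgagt
A match describes letters in a window and is not a measured binding site.

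Libraries held 53143878 to 81384893 counted reads, and the lowest count of any clock gene in any library was 194, for Npas2. All 13 marker genes of the 6 regions, such as Gpr151 for LHb, Slc6a3 for VTA and Hcrt for LH, had their highest regional mean in the region they mark. Medial habenula markers (Tac2, Calb2 and Chrnb4) summed to 413.9 to 571 FPKM in LHb libraries and at most 247.2 elsewhere. The LHb markers summed to 226.8 to 313.9 in LHb. LHb levels are thus of tissue that also held medial habenula transcripts, whose part in the results was not tested. Some libraries stood apart. In LHb, 3 libraries (CRS high 1, CRS low 1 and naive low 1) held choroid plexus transcripts, with summed marker levels up to 7036 FPKM, fragments per length of transcript and size of library, and 4 (CRS high 2 and 3, CRS low 2 and naive high 3) held pancreatic enzyme transcripts. In NAc, 3 libraries (CRS 1 and 2, naive 1) held Slc17a7, used here as a marker of mPFC, at 63.1 to 180 FPKM against 0.507 to 3.54 in the other 3. VTA naive 2 had Th at 12.4 FPKM against 75.9 to 420 in the other 5, with red blood cell markers at 293, and mPFC CRS 3 had Th at 40.9 against 0.574 to 2.72 in the other 5. In vHippo, CRS 2 had oligodendrocyte markers at 805 FPKM against 147 to 439 in the other 5, and vHippo markers at 99.8 against 166 to 212. In naive mPFC, leptomeninges markers reached 53.4 FPKM (median 3.775), endothelial markers 49.6 (15.2) and microglia markers 45.8 (22.35). LH markers were at 202.6 FPKM in the lowest naive LH library, with a median of 1073 in naive LH and 998.4 in CRS LH. The part of these libraries in the regional results was not tested by marker content. In bulk tissue, fewer cells of a type and less RNA per cell cannot be told apart.

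Among naive mice, the clock genes differed most by region in Npas2, the CLOCK counterpart. Regions were set against the mean of the other 4 on the log2 scale, a geometric mean. By that measure Npas2 was 3.82-fold higher in NAc, 2.91-fold in mPFC and 1.80-fold in vHippo, and it was lower in VTA and LH. The low naive means of VTA (0.972 FPKM) and LH (1.95) pull that comparator below the arithmetic mean, so these folds exceed ratios of mean FPKM. Clock itself did not differ detectably between regions, while Per1, Cry2 and Nr1d1 were higher in mPFC and lower in VTA, and Dbp was higher in NAc. In 1 fit to the 30 libraries of 5 regions, with edgeR's quasi-likelihood test and Benjamini-Hochberg adjustment over all genes tested (a call is an adjusted p below 0.05), naive levels differed among the regions for 8 of the 10 clock genes. The same test called 28.1% of 24244 genes. LHb was deposited in a separate table, so its levels are set beside the others without a test.

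Npas2 was 14.9, 8.80 and 16.1 FPKM in the 3 naive NAc libraries. It was 13.1, 9.56 and 7.63 in mPFC and 8.94, 5.95 and 6.57 in vHippo. It was 2.40, 2.02 and 1.43 in LH, 0.871, 0.891 and 1.15 in VTA, and 0.642 to 1.71 with a median of 1.18 in the 6 naive LHb libraries. The 9 libraries of NAc, mPFC and vHippo all lay above the 12 of LH, VTA and LHb, whereas the first 3 regions overlapped each other, as did LH with LHb and LHb with VTA. Against the mean of the other 4 regions the log2 difference was 1.93 ± 0.19 in NAc (SE, 3 naive libraries a region, edgeR adjusted p = 1.75e-07). It was 1.54 ± 0.19 in mPFC (edgeR adjusted p = 1.04e-05) and 0.85 ± 0.20 in vHippo (edgeR adjusted p = 0.00536). It was -2.77 ± 0.26 in VTA (edgeR adjusted p = 1.02e-07) and -1.55 ± 0.24 in LH (edgeR adjusted p = 0.000172).

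Clock, the gene Npas2 can stand in for, had naive means between 6.63 ± 0.52 FPKM (SD, n = 3) in LH and 7.82 ± 1.92 (n = 6) in LHb, a 1.18-fold range. Its neighbours in the order overlapped throughout, and the test for any regional difference gave an edgeR adjusted p of 0.836. The 2 paralogs are compared per length, as FPKM. Over CRS and naive libraries together, the ratio of Npas2 to Clock was 1.28 to 2.60 in NAc, 0.638 to 1.68 in mPFC and 0.843 to 1.26 in vHippo. It was 0.193 to 0.373 in LH, 0.0925 to 0.183 in VTA and 0.0633 to 0.271 in LHb. Npas2 exceeded Clock in all 6 NAc libraries and in 5 of 6 mPFC libraries, the exception being CRS 3, the mPFC library with Th, and it was below Clock in all 24 libraries of LH, VTA and LHb. The ratio exceeded 1 in the 3 NAc libraries with high Slc17a7 and in the 3 without.

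**Figure D1:**
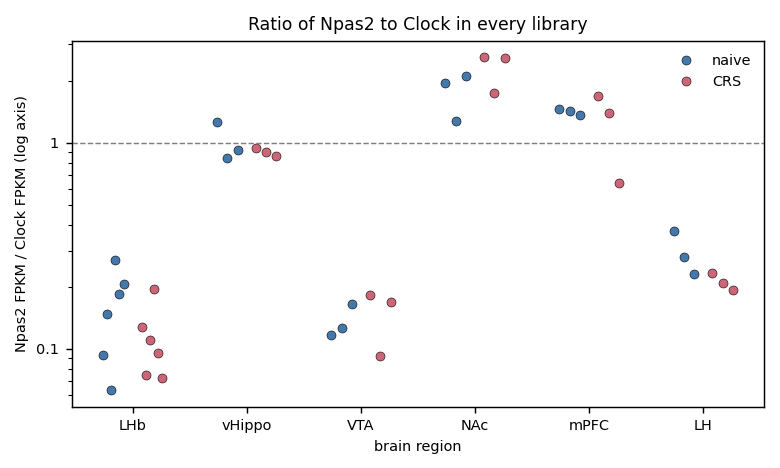
Ratio of Npas2 to Clock FPKM on a log axis for each of 42 libraries, by brain region, naive in blue and CRS in red; the dashed line marks a ratio of 1. NAc libraries lie between 1.28 and 2.60, and LH, VTA and LHb libraries lie at or below 0.373.

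The PER genes, the repressors whose accumulation times the loop, had their highest naive means in mPFC or NAc. Per1 was 15.5, 17.02 and 20.1 FPKM in naive mPFC and 14.7, 16.2 and 20.6 in NAc, against 4.37, 8.19 and 7.75 in VTA and 5.87, 6.97 and 10.01 in LH. The mPFC and NAc libraries all lay above those of VTA and LH. The log2 difference from the other regions was 0.86 ± 0.17 in mPFC (edgeR adjusted p = 0.001), 0.71 ± 0.17 in NAc (edgeR adjusted p = 0.00972), -0.96 ± 0.19 in VTA (edgeR adjusted p = 0.000787) and -0.77 ± 0.19 in LH (edgeR adjusted p = 0.01). Per2 differed among regions (edgeR adjusted p = 0.027; 0.000304 to 0.0867 with 1 library left out at a time, not called without LH naive 1, VTA naive 1 or 3, or mPFC naive 1 or 2) and passed the threshold in no single region with all libraries, with naive means from 3.37 ± 2.13 in VTA to 6.48 ± 1.58 in mPFC (SD, n = 3). In VTA the naive Per2 values were 1.99, 5.83 and 2.31 FPKM, and the high one was naive 2, the library with red blood cell markers. With all libraries the VTA difference was -0.69 (edgeR adjusted p = 0.0529), and without VTA naive 2 it was -1.29 (edgeR adjusted p = 0.000502). In mPFC, Per2 was called without VTA naive 2 (0.77, edgeR adjusted p = 0.00407) or without mPFC naive 3 (0.84, edgeR adjusted p = 0.0239), and without mPFC naive 3 it was also called in VTA (-0.74, edgeR adjusted p = 0.0307). Per3 was lower in vHippo, at 2.55, 4.57 and 2.97 FPKM, with a log2 difference of -0.57 ± 0.18 (edgeR adjusted p = 0.0326), and its ranges overlapped between all neighbours in the order.

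**Figure D2:**
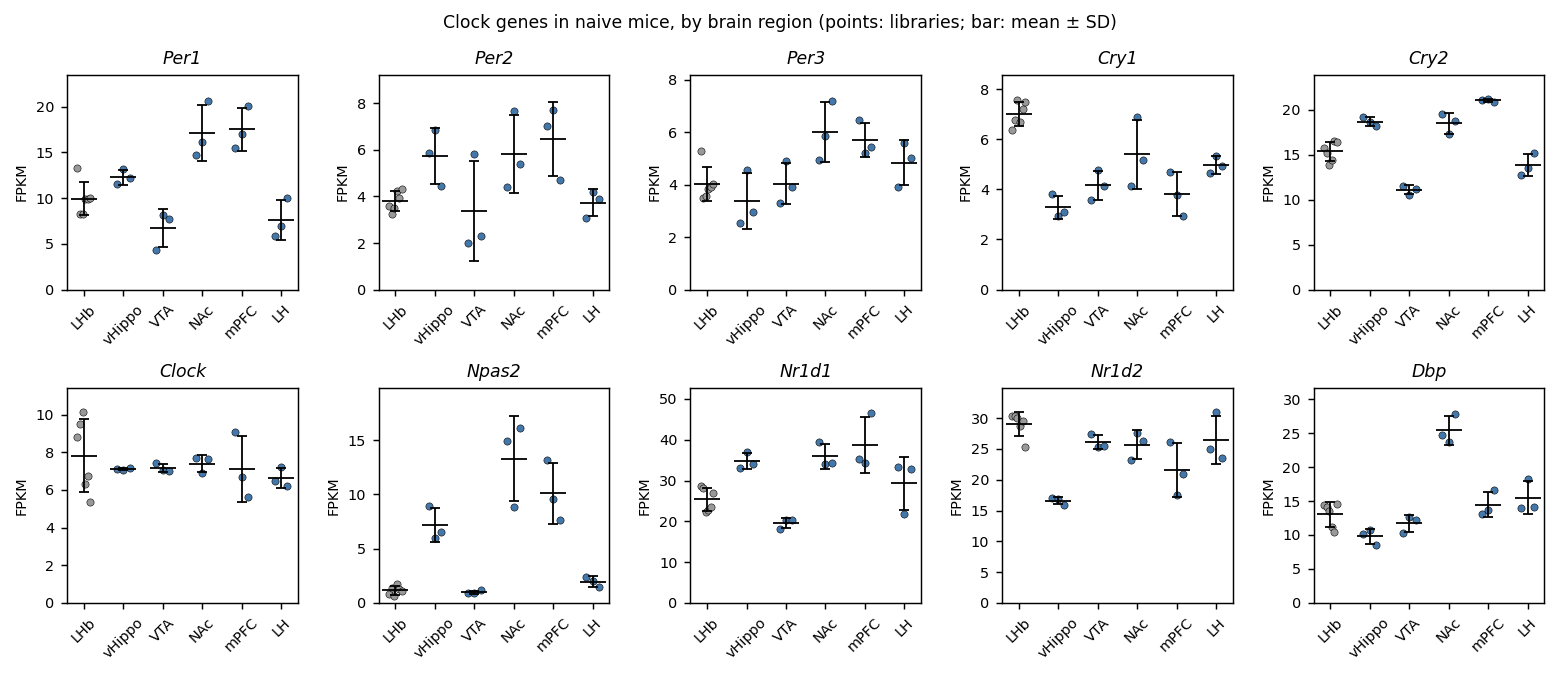
FPKM of the 10 clock genes in naive mice of 6 regions (LHb in grey, 6 libraries, from a separately processed table; others in blue, 3 libraries each), with points for libraries and bars for mean ± SD. Npas2 spans 0.972 to 13.3 FPKM between regional means while Clock spans 6.63 to 7.82.

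Of the cryptochromes, which repress CLOCK and NPAS2 with the PER proteins, Cry2 varied by region and Cry1 was not called. Cry2 was 21.1, 21.2 and 20.9 FPKM in naive mPFC, above every other naive library, and 11.6, 10.5 and 11.2 in VTA, below every other. It was 12.8, 13.5 and 15.2 in LH. Its log2 difference was 0.55 ± 0.10 in mPFC (edgeR adjusted p = 0.000469), -0.69 ± 0.11 in VTA (edgeR adjusted p = 6.13e-05) and -0.33 ± 0.10 in LH (edgeR adjusted p = 0.0458). Cry1 ranged from a naive mean of 3.29 ± 0.47 FPKM in vHippo to 5.41 ± 1.38 in NAc (SD, n = 3; edgeR adjusted p = 0.0649 for any difference), with 7.01 ± 0.48 in LHb (n = 6). Per length, Cry2 exceeded Cry1 in all 42 libraries, since the ratio of Cry1 to Cry2 lay between 0.14 and 0.548.

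Nr1d1, which encodes REV-ERBα, was 35.3, 34.4 and 46.5 FPKM in naive mPFC and 18.1, 20.2 and 20.4 in VTA. All VTA values lay below those of the other 4 regions in the same table. Its log2 difference was 0.48 ± 0.15 in mPFC (edgeR adjusted p = 0.0384) and -0.83 ± 0.17 in VTA (edgeR adjusted p = 0.000935). Its paralog Nr1d2 followed another order, highest in LHb at 29.1 ± 1.96 FPKM (SD, n = 6) and lowest in vHippo at 17.04, 16.8 and 15.9, which did not overlap any other region. The vHippo difference for Nr1d2 was -0.57 ± 0.13 (edgeR adjusted p = 0.00296).

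Dbp, the D-box activator, was 24.7, 23.7 and 27.8 FPKM in naive NAc, above every other naive library. It was 10.2, 10.7 and 8.55 in vHippo and 10.3, 12.7 and 12.2 in VTA. The log2 difference was 0.98 ± 0.12 in NAc (edgeR adjusted p = 5.59e-06), -0.69 ± 0.13 in vHippo (edgeR adjusted p = 0.000891) and -0.40 ± 0.13 in VTA (edgeR adjusted p = 0.0336). Tef, which encodes a related D-box activator, was higher in NAc as well, by 0.60 ± 0.10 (edgeR adjusted p = 0.000171).

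Counted by region, mPFC had 4 of 10 clock genes higher (8.38% of all genes) and 0 lower, with 13.8% of all genes called in either direction. NAc had 3 higher (5.07%) and 0 lower (6.97% in either direction), and vHippo 1 higher (7.03%) and 3 lower (5.47%; 12.5% in either direction). VTA had 5 lower (8.53%) and 0 higher (18.5% in either direction), and LH 3 lower (4.33%) and 0 higher (9.01% in either direction). In each region some calls rested on single libraries, as fits leaving out each of the 30 libraries in turn showed. Cry2 in LH was not called in 21 of 30 such fits (highest edgeR adjusted p = 0.218, without LH naive 1), Nr1d1 in mPFC in 11 (0.173, without mPFC naive 3) and Dbp in VTA in 9 (0.195, without VTA naive 1). Per1 in LH was not called without LH naive 1 (-0.62, edgeR adjusted p = 0.117) or LH naive 2 (-0.68, edgeR adjusted p = 0.0818), and Per1 in NAc was not called without NAc naive 3 (0.56, edgeR adjusted p = 0.187). In vHippo, Per3 was not called without naive 1 (-0.40, edgeR adjusted p = 0.277) or naive 3 (-0.50, edgeR adjusted p = 0.182), nor Npas2 without naive 1 (0.66, edgeR adjusted p = 0.0934). The other regional calls of clock genes held in all 30 fits. These contrasts share libraries, since each region is also part of the mean the others are set against. Of 25 other clock genes tested, among them Avp and Vip, which also served here as markers of suprachiasmatic nucleus neurons, 15 differed among regions. In VTA 8 of them were lower (Hlf, Tef, Noct, Bhlhe40, Usp2, Avp, Prokr2 and Arntl), among them Arntl (-0.76 ± 0.14, edgeR adjusted p = 0.000442) and Usp2, a clock-controlled deubiquitinase (-1.32 ± 0.21, edgeR adjusted p = 6.87e-05), and 1 was higher, Bhlhe41. In mPFC 8 were higher (Hlf, Vip, Tef, Csnk1e, Bhlhe40, Usp2, Ciart and Arntl), including Arntl (0.76 ± 0.13, edgeR adjusted p = 0.000274) and Bhlhe40 (1.19 ± 0.16, edgeR adjusted p = 2.11e-05), and 2 were lower (Bhlhe41 and Fbxl21). In NAc Tef and Usp2 were higher and Bhlhe40 and Nfil3 lower, in LH Rora, Fbxl21 and Avp were higher and Vip, Tef and Usp2 lower, and in vHippo Noct, Arntl2 and Prokr2 were higher and Csnk1e and Bhlhe41 lower. Of 11 immediate early genes, which neuronal activity induces, 10 were higher in mPFC, among them Nr4a1 at 2.06 ± 0.27 (edgeR adjusted p = 1.56e-05), and 4 were lower in VTA. In NAc, where Per1 was also higher, 2 were higher, and in LH, where Per1 was lower, 3 were lower. Their part in the regional order of Per1 was not tested. Of 12 glucocorticoid response genes, 6 differed among regions, with Zbtb16 2.25 ± 0.22 higher in vHippo (edgeR adjusted p = 2.13e-07).

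In LHb, none of the 10 clock genes passed the threshold between 6 CRS and 6 naive libraries, where 1.17% of 23266 genes did. At an unadjusted edgeR p below 0.05 there were 4 (Per3, Nr1d1, Per1 and Cry1), beside 12.7% of all genes, and DESeq2 called 2, Per3 and Nr1d1, beside 3.32% of all genes. The log2 difference was positive for 8 and negative for 2, Cry1 and Npas2, with a median of 0.14 against -0.004 over all genes tested.

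Per3, a period gene dispensable for the core loop, was 3.48, 3.58, 3.82, 3.91, 4.02 and 5.28 FPKM in the naive libraries and 4.64, 4.89, 4.93, 5.01, 5.46 and 5.85 in the CRS libraries. Of the 6 naive libraries, 5 lay below every CRS library, and naive high 1 lay among them. The difference was 0.35 ± 0.09 (edgeR adjusted p = 0.101), 0.36 with an adjusted p of 0.00899 in DESeq2, and 0.44 with an edgeR adjusted p of 0.00994 without naive high 1. Those were the 2 of 21 alternatives below the threshold. With an offset for transcript length the Per3 difference was 0.27 (edgeR adjusted p = 0.218), and without the choroid plexus libraries 0.29 (edgeR adjusted p = 0.231). Nr1d1 was 22.4, 22.8, 23.6, 26.9, 28.1 and 28.7 FPKM in naive and 27.4, 27.7, 29.1, 32.4, 35.1 and 37.5 in CRS libraries, and 4 of 6 CRS libraries lay above all naive ones. Its difference was 0.30 ± 0.09 (edgeR adjusted p = 0.156), with 0.0239 in DESeq2, the 1 of 21 alternatives below the threshold. Per1 was 8.23, 8.32, 9.93, 9.93, 10.02 and 13.3 FPKM in naive and 10.4, 10.75, 10.97, 12.8, 13.1 and 14.02 in CRS libraries, which overlapped through naive high 1. The Per1 difference was 0.26 ± 0.10 (edgeR adjusted p = 0.316), and 0.37 without naive high 1 (edgeR adjusted p = 0.0321). In the 11 other fits with 1 library left out Per1 was not called (edgeR adjusted p up to 0.583).

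Cry1 was 6.35 to 7.57 FPKM in naive and 5.29 to 7.06 in CRS libraries, a difference of -0.20 ± 0.08 (edgeR adjusted p = 0.326). The differences were 0.14 ± 0.07 for Per2, 0.14 ± 0.08 for Dbp, 0.16 ± 0.10 for Clock, 0.11 ± 0.06 for Nr1d2, 0.04 ± 0.05 for Cry2 and -0.31 ± 0.23 for Npas2. Arntl, the partner of Clock and Npas2, was 3.21 ± 0.47 FPKM in naive and 2.76 ± 0.25 in CRS libraries (SD, n = 6), a difference of -0.22 ± 0.08 (edgeR adjusted p = 0.267). Of 24 other clock genes tested, 1 was called, Btrc, which encodes a ubiquitin ligase subunit that targets PER proteins. Btrc was 0.32 ± 0.05 higher in CRS (edgeR adjusted p = 0.0104), with 3.22 to 3.48 FPKM in naive low and 4.57 to 5.49 in the other 9 libraries.

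Between the naive FST classes, Clock was the 1 clock gene called (3.07% of all genes called). Clock was 6.32, 6.75 and 5.38 FPKM in naive low and 8.80, 9.50 and 10.1 in naive high libraries, with no overlap. It was 8.86, 9.31 and 9.24 in CRS high and 5.99, 9.46 and 9.10 in CRS low. The 12 libraries thus split into 4 at 5.38 to 6.75, which are the naive low group and CRS low 1, and 8 at 8.80 to 10.1. Clock was 0.67 ± 0.15 higher in naive high than naive low (edgeR adjusted p = 0.0295; 0.000362 to 0.26 over 21 alternatives) and 0.59 ± 0.15 higher in CRS high than naive low (edgeR adjusted p = 0.0498; 3.67% of genes called; 0.00206 to 0.542 over 21 alternatives). Without the 4 pancreas libraries the first difference was 0.62 ± 0.18 (edgeR adjusted p = 0.26). The second was then 0.54 ± 0.22 (edgeR adjusted p = 0.542), from a fit with 1 CRS high library, assumed to vary like the other groups.

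Transcript length moved with these Clock values. The exon length implied by the deposited counts and FPKM was 14082 bases, and the 200 genes nearest in length had a median difference of 0.21 between naive high and naive low, against -0.02 over all genes. With an offset for length fitted per library, Clock differed by 0.48 (edgeR adjusted p = 0.0867) in that comparison and by 0.34 (edgeR adjusted p = 0.251) for CRS high minus naive low. Without naive low 3 the first difference was 0.58 (edgeR adjusted p = 0.124), and leaving out 1 library at a time gave edgeR adjusted p from 0.00256, without CRS low 1, to 0.124, with 7 of 12 below the threshold. The libraries whose omission ended that call were naive low 1 and 3, naive high 2 and 3, and CRS high 3. For CRS high against naive low 2 of 12 were below the threshold, without CRS low 1 or CRS low 2, over 0.00463 to 0.196. Of 16 marker classes, 4 did not overlap between the naive classes. Endothelial markers summed to 26.2 to 39.0 FPKM in naive low and at most 18.1 in naive high, microglia markers to 16.9 to 20.9 and 13.7 to 16.01, choroid plexus markers to 74.4 to 7036 and 41.6 to 48.0, and pancreas markers to 0.044 to 0.0851 and 0.259 to 323.5. Between CRS high and naive low 2 did not overlap, the endothelial markers, at 17.96 to 25.2 in CRS high, and the oligodendrocyte markers, at 657 to 788 against 819 to 886.5 in naive low. Their part in the results was not tested.

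The other 9 clock genes were not called between naive classes. Per2 was 4.23, 3.95 and 4.33 FPKM in naive low and 3.57, 3.25 and 3.51 in naive high, with no overlap, a difference of -0.23 ± 0.10 (edgeR adjusted p = 0.236). Nr1d2 did not overlap in the other direction, at 28.7, 29.6 and 25.3 against 30.3, 30.4 and 30.1. With Clock, 3 of 10 clock genes did not overlap, beside 21.5% of all genes in either direction. Dbp was 11.1, 10.4 and 14.6 FPKM in naive low and 14.4, 14.1 and 13.5 in naive high (0.26 ± 0.12, edgeR adjusted p = 0.28). Of the other clock genes, Btrc (0.57 ± 0.07, edgeR adjusted p = 0.00154) and Fbxl21, which encodes a CRY-binding F-box protein (0.63 ± 0.14, edgeR adjusted p = 0.0366), were higher in naive high. Transcript length, which moved with Clock in this comparison, was not examined for either gene, nor for Btrc between CRS and naive.

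Within CRS mice, no clock gene was called between high and low FST scores, where 0 genes were called in all by edgeR and 2 by DESeq2. None of the 10 reached an unadjusted edgeR p of 0.05, beside 2.12% of all genes. The largest differences were 0.17 ± 0.15 for Clock, 0.14 ± 0.12 for Nr1d1, -0.14 ± 0.15 for Per1 and -0.14 ± 0.11 for Cry1. Whether the FST effect differed between CRS and naive mice was tested directly and called no clock gene in edgeR (0.202% of all genes; 1 at an unadjusted p below 0.05, beside 6.74% of all genes) or DESeq2 (1.40% of all genes), with Clock at -0.50 ± 0.21 (edgeR adjusted p = 0.664). CRS low against naive high, whose score ranges overlap, and CRS high against naive high also gave 0 clock genes, with 0 of all genes called by edgeR and 43 and 21 by DESeq2. At an unadjusted edgeR p below 0.05 there were 2 and 4 clock genes, beside 7.67% and 5.49% of all genes.

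CRS low against naive low gave 0 clock genes called by edgeR (2.19% of all genes) and 0 by DESeq2 (4.46%), with Clock at 0.41 ± 0.15, Per3 at 0.39 ± 0.12, Per1 at 0.35 ± 0.15, Dbp at 0.32 ± 0.12 and Nr1d1 at 0.30 ± 0.12. Those 5 had an unadjusted edgeR p below 0.05, beside 11.3% of all genes. Without the 3 choroid plexus libraries, Clock differed by 0.61 in this comparison (edgeR adjusted p = 0.0399). Without only CRS low 1, which is among those 3, Clock differed by 0.60 (edgeR adjusted p = 0.0108). Per3 was called without naive high 1 (0.40, edgeR adjusted p = 0.0409). For each gene that was the 1 of 12 fits leaving out 1 library that was below the threshold. Among immediate early genes, Fosb (1.54 ± 0.32, edgeR adjusted p = 0.0236) and Atf3 (1.97 ± 0.41, edgeR adjusted p = 0.0251) were higher in CRS low than naive low. None of the 12 glucocorticoid response genes was called by edgeR in the LHb comparisons. The test for any difference among the 4 groups called 0 clock genes (1.98% of all genes) in edgeR, with 3 at an unadjusted p below 0.05 beside 12.5% of all genes, and 3 in DESeq2, which called 5.99% of all genes.

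**Figure D3:**
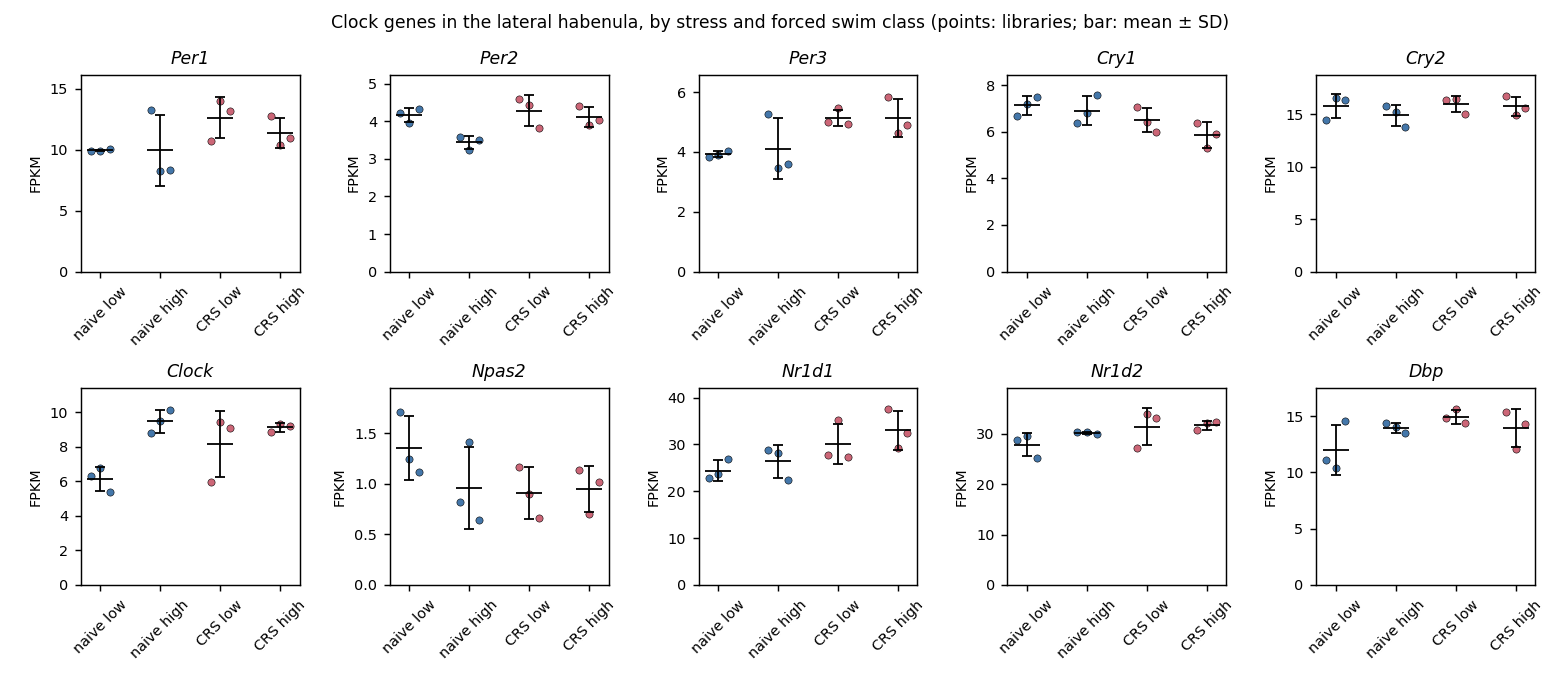
FPKM of the 10 clock genes in the 12 LHb libraries by stress and FST class (naive blue, CRS red; points are libraries, bars mean ± SD, n = 3). Clock lies at 5.38 to 6.75 in the naive low libraries and CRS low 1 and at 8.80 to 10.1 in the other 8.

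In the other 5 regions, 0 clock genes and 0 genes of any kind were called between CRS and naive mice by edgeR (0% in each region), and DESeq2 called 1 clock gene in LH, Per2, beside 1.66% of all genes, and 1 in vHippo, Nr1d1, beside 0.213%. At an unadjusted edgeR p below 0.05 there were 3 clock genes in LH (9.38% of all genes), 2 each in vHippo (6.58%), VTA (1.61%) and NAc (2.18%), and 1 in mPFC (1.56%). With 3 libraries against 3, the smallest exact permutation p is 0.1, so single-gene exact tests could not reach 0.05.

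Per2, a core repressor of the loop, had the largest log2 difference of the 10 clock genes over these 5 regions. In LH it was 3.08, 4.20 and 3.91 FPKM in naive and 6.38, 6.56 and 7.14 in CRS libraries, with no overlap. The difference was 0.77 ± 0.14 (edgeR adjusted p = 0.424, DESeq2 0.000884), and without naive 3 it was 0.81 (edgeR adjusted p = 0.0402). Those were the 2 of 13 alternatives below the threshold. Leaving out 1 library at a time gave edgeR adjusted p up to 0.865, and the fit of 30 libraries gave 0.519. In LH, Per3 (3.90, 5.60 and 5.01 against 6.20, 6.51 and 7.38) and Cry1 (4.63, 5.34 and 4.93 against 6.45, 6.35 and 7.18) did not overlap either, so 3 of 10 clock genes did not overlap, all higher in CRS, beside 15.8% of all genes in either direction. Of 16 marker classes, 4 also separated the LH groups. Oligodendrocyte markers summed to 645 to 1450 FPKM in naive and 440 to 574 in CRS libraries, choroid plexus markers to 15.3 to 23.4 and 5.23 to 9.94, leptomeninges markers to 3.86 to 4.81 and 2.72 to 3.34, and VTA markers to 6.96 to 11.75 and 13.1 to 18.2. Genes used as markers of the suprachiasmatic nucleus, the central clock of the brain (Vip, Avp, Prok2, Six6 and Lhx1), were also summed. The sum was 71.7, 88.5 and 3.78 FPKM in the CRS libraries and 8.45 to 18.9 in naive. It was 9.78 to 20.9 in CRS mPFC, outside that nucleus, and it does not tell which gene made up the LH values. Among naive mice Avp was higher and Vip lower in LH than in the other regions. The part of these marker classes in the result was not tested.

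In NAc, Per2 was 4.41, 7.68 and 5.41 FPKM in naive and 9.02, 6.99 and 11.4 in CRS libraries, a difference of 0.70 ± 0.24 (edgeR adjusted p = 1). Endothelial markers did not overlap there, at 19.9 to 22.2 FPKM in naive and 15.6 to 16.5 in CRS libraries. The NAc libraries high in Slc17a7 were CRS 1 and 2 and naive 1, where Per2 was 9.02, 6.99 and 4.41 FPKM. In the others Per2 was 11.4 in CRS and 7.68 and 5.41 in naive. The part of endothelial markers or Slc17a7 in the result was not tested. In VTA the groups overlapped through naive 2, at 1.99, 5.83 and 2.31 against 4.46, 4.29 and 3.97. The Per2 difference was 0.31 ± 0.38 in VTA, 0.15 ± 0.29 in mPFC and 0.07 ± 0.16 in vHippo.

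Nr1d1 was the clock gene with the smallest edgeR p in vHippo. It was 33.1, 37.0 and 34.1 FPKM in naive and 24.9, 28.9 and 22.8 in CRS libraries, with no overlap, a difference of -0.46 ± 0.10 (edgeR adjusted p = 0.75, DESeq2 0.0477, the 1 of 13 alternatives below the threshold). Its paralog Nr1d2 did not overlap in the other direction, at 17.04, 16.8 and 15.9 against 18.5, 29.2 and 18.2 (0.38 ± 0.17, edgeR adjusted p = 0.75). Clock was 7.12, 7.05 and 7.15 FPKM in naive and 8.22, 9.05 and 8.35 in CRS libraries (0.25 ± 0.07, edgeR adjusted p = 0.75). Thus 3 of 10 clock genes did not overlap in vHippo, beside 14.1% of all genes in either direction. Without CRS 2, the library rich in oligodendrocyte markers and the one with Nr1d2 at 29.2, the difference was 0.15 for Nr1d2, -0.53 for Nr1d1 and 0.23 for Clock. Medial habenula markers were at 44.8 to 52.9 FPKM in naive and 5.87 to 38.7 in CRS vHippo libraries, and endothelial markers at 16.6 to 16.9 and 19.1 to 20.8; their part in the result was not tested.

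**Figure D4:**
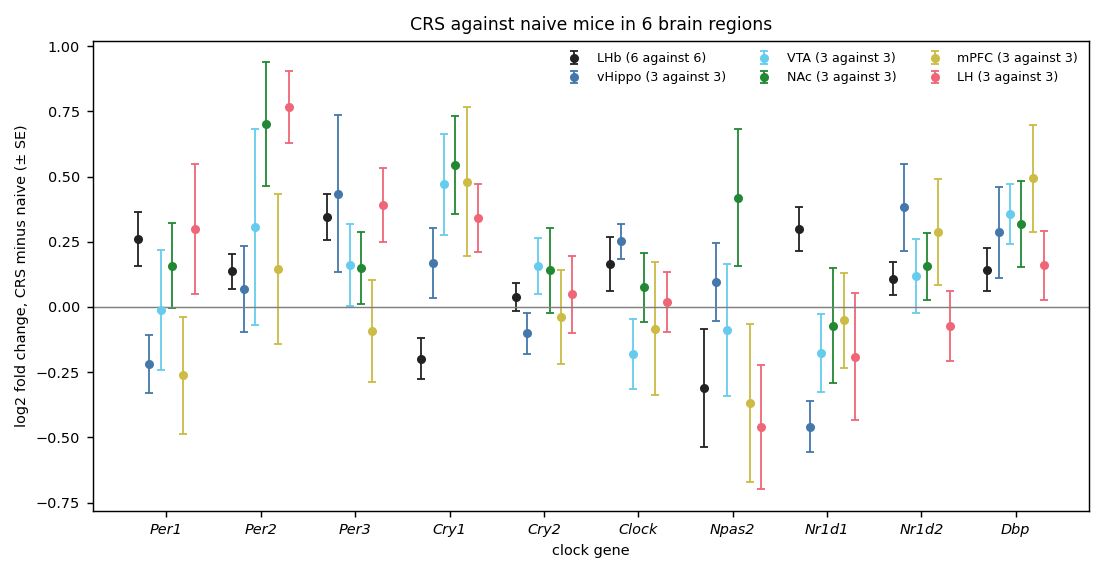
Log2 fold change of CRS over naive mice with its SE for the 10 clock genes in 6 regions (LHb 6 against 6 libraries, others 3 against 3). Cry1 lies above 0 in the 5 regions other than LHb and below 0 in LHb.

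Cry1 and Dbp, like Per2 above, had positive differences in each of the 5 regions, and Nr1d1 had negative ones, from -0.46 in vHippo to -0.05 in mPFC. For Cry1 the differences were 0.54 ± 0.19 in NAc, 0.48 ± 0.29 in mPFC, 0.47 ± 0.19 in VTA, 0.34 ± 0.13 in LH and 0.17 ± 0.13 in vHippo, and the test of a difference between the regional effects gave an unadjusted edgeR p of 0.648. For Dbp they were 0.32 ± 0.16, 0.49 ± 0.21, 0.36 ± 0.11, 0.16 ± 0.13 and 0.29 ± 0.18 in the same order. In mPFC Dbp was 13.1, 13.7 and 16.6 FPKM in naive and 24.0, 19.2 and 18.5 in CRS libraries, and in VTA 10.3, 12.7 and 12.2 against 17.2, 14.3 and 14.6, with no overlap in either. In mPFC 1 clock gene did not overlap, beside 5.26% of all genes in either direction, in VTA 2 did not, Dbp and Cry2, beside 6.69%, and in NAc 0, beside 6.39%.

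The CRS effect averaged over the 5 regions, a comparison added after these values were seen, was 0.40 ± 0.09 for Cry1 (edgeR adjusted p = 0.326, DESeq2 0.00832) and 0.32 ± 0.07 for Dbp (edgeR adjusted p = 0.38, DESeq2 0.0136), where DESeq2 called 0.235% of all genes. It was 0.40 ± 0.13 for Per2, 0.21 ± 0.10 for Per3, 0.17 ± 0.07 for Nr1d2 and -0.19 ± 0.09 for Nr1d1, and between -0.08 and 0.04 for Per1, Cry2, Clock and Npas2. No clock gene was called by edgeR (0.0206% of all genes), and 6 had an unadjusted edgeR p below 0.05, beside 5.24% of all genes. For Cry1 and for Dbp, DESeq2 was the 1 of 36 alternatives below the threshold. Leaving out 1 library at a time, the Cry1 value stayed between 0.36 and 0.43 and the Dbp value between 0.28 and 0.35. If libraries of different regions came from the same mice, the errors of this mean are too small. The signs of Cry1 and Nr1d1 in LHb were opposite to these means, as was that of Per1, whose mean was near 0 (-0.006). LHb is in another table and the difference was not tested.

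**Figure D5:**
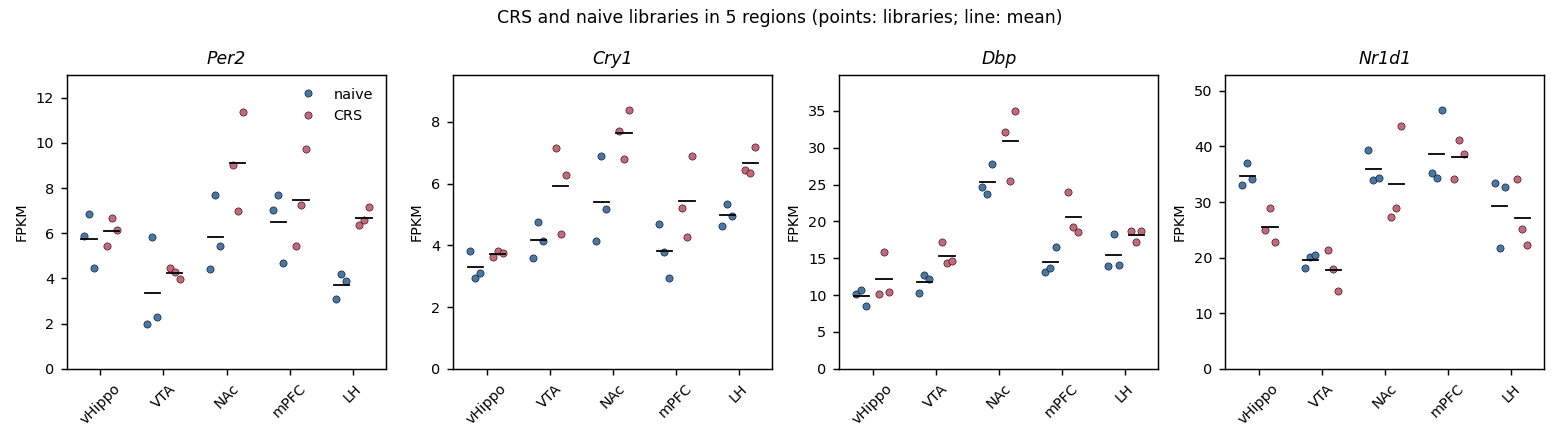
FPKM of Per2, Cry1, Dbp and Nr1d1 in 3 naive (blue) and 3 CRS (red) libraries of 5 regions, with lines at the means. Per2 in LH separates at 3.08 to 4.20 against 6.38 to 7.14, and Nr1d1 in vHippo at 33.1 to 37.0 against 22.8 to 28.9.

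No clock gene passed the threshold for a CRS effect that differed among the 5 regions, for which edgeR called 0 genes in all and DESeq2 34. None of the 10 had an unadjusted edgeR p below 0.05 there, beside 4.43% of all genes. In single regions none of the other clock genes, immediate early genes or glucocorticoid response genes was called between CRS and naive mice by edgeR. At an unadjusted edgeR p below 0.05 there were 2 of 25 other clock genes, 4 of 12 glucocorticoid response genes and 3 of 11 immediate early genes in LH, beside 9.38% of all genes. In the same order the counts were 0, 3 and 1 in vHippo (6.58% of all genes) and 0, 2 and 2 in VTA (1.61%). They were 2, 1 and 2 in NAc (2.18%) and 0, 0 and 0 in mPFC (1.56%).

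Co-variation between clock genes was examined for 6 pairs in LHb (12 libraries) and in each of 5 regions (6 libraries), 36 relations in all, on log2 CPM, counts scaled to library size. None had a permutation p below 0.05 after Benjamini-Hochberg adjustment. In LHb, Dbp and Nr1d1, which share E-box activation, had r = 0.653 (permutation p = 0.0216, adjusted 0.194) and rho = 0.643 (permutation p = 0.0292, adjusted 0.262), and r was 0.346 without the 2 libraries farthest from the median of Dbp. Nr1d1 and its target Arntl had r = -0.297 (permutation p = 0.349, adjusted 0.571) and rho = -0.266 (permutation p = 0.403, adjusted 0.715), with r = -0.341 without the 2 farthest. For that pair r had the opposite sign in 3 of the other 5 regions. It was 0.87 in NAc (exact permutation p = 0.0167, adjusted 0.194; rho = 0.6, exact permutation p = 0.242, adjusted 0.512; r = 0.126 without the 2 farthest) and 0.718 in VTA (exact permutation p = 0.0389, adjusted 0.233; rho = 0.714, exact permutation p = 0.136, adjusted 0.445; r = 0.685 without the 2 farthest). In VTA, Per1 and Fos had r = 0.941 (exact permutation p = 0.00278, adjusted 0.1, the smallest p that 6 libraries gave here) and rho = 0.943 (exact permutation p = 0.0167, adjusted 0.262), with r = 0.856 without the 2 farthest. The LH value for that pair was r = 0.92 (exact permutation p = 0.0153, adjusted 0.194) and rho = 0.829 (exact permutation p = 0.0583, adjusted 0.262), with r = 0.896 without the 2 farthest. In NAc it was negative, r = -0.774 (exact permutation p = 0.0764, adjusted 0.332) and rho = -0.6 (exact permutation p = 0.242, adjusted 0.512), with r = 0.248 without the 2 farthest.

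Among 12691 genes with a mean of at least 5 CPM in LHb, the profile over 12 libraries most like that of Dbp was that of Slc15a4 (r = 0.838), followed by C030037D09Rik, Mogs, Pim3 and Flywch1 (r = 0.832 to 0.801). Most like Per2 were Maml1 (r = 0.915), Ttc30b and Map3k21 (r = 0.91 each), Pskh1 and Marveld1. Over the 30 libraries of 5 regions, after subtraction of each region's mean and among 12169 genes, Dbp was most like Mxi1 (r = 0.683) and Bhlhe41 (r = 0.648), the latter encoding the clock repressor DEC2, then Snx25, Zfp959 and Fam104a. Per2 was most like 9330159F19Rik (r = 0.737), then Zbtb11, Gm42979, Setdb1 and Zscan26. These correlations are descriptions; the libraries share group differences and depth.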

How the data were processed

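Polyadenylated RNA of 6 mouse brain regions was sequenced in 42 libraries. Per the submitters' processing notes, cutadapt 1.9, HISAT2 2.0.4, StringTie 1.3.4d, edgeR and the build GRCm39 were used, with no order or setting given. The authors deposited gene counts, unnormalized whole numbers, together with FPKM in 2 tables, 1 for LHb and 1 for the other 5 regions. Gene starts equal those of GENCODE M21 (GRCm38) for 99.5% of matched genes in the 5-region table and 2.18% in the LHb table, so the tables differ in annotation and were tested separately. In the 5-region table, 18 count columns matched no sample and were not used.

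Counts were tested in edgeR 4.0.16 (R 4.3.3) with TMM factors, filterByExpr and the quasi-likelihood F test, with Benjamini-Hochberg adjustment over all genes tested and calls at an adjusted p below 0.05. All 10 clock genes passed the filter in every fit. LHb comparisons came from 1 fit of 12 libraries, CRS against naive in each other region from a fit of its 6 libraries, and regional levels from 1 fit of 30 libraries, in which an animal shared by regions could not be modelled. Fold changes are on the log2 scale with SE, and levels are FPKM, which correct for length, with SD. Alternatives were DESeq2 1.42.0, RLE factors, no filter, limma 3.58.1 on log2(FPKM + 0.1), a replicate block, a transcript length offset and leaving out libraries. The scripts were tested on simulated data. The clock genes, lists, markers and tests were chosen with earlier results of these data known. The text names all 10 clock genes in full and names listed genes past the threshold. It gives library values for clock genes past the threshold, in the regions or groups called. Library values are also given for the 3 of smallest p in the LHb comparisons of CRS with naive and of the naive FST classes. 1 gene of the list of other clock genes is not reported here and was left out of that list's counts.

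Correlations used 100000 resamples for 12 libraries and all orders for 6. The chi-square of counts between libraries of a group was at least 24.1 per degree of freedom, so none was a copy of another.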

Additional observations from a re-analysis of the deposited data

Results flagged for a closer look

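The LHb naive and CRS groups of 6 libraries were tested for a library whose gap to the nearest other, divided by the group's range, exceeds Dixon's 95% value for 6, 0.625. Of 20 groups (10 clock genes in 2 groups), 5 did. That value flags about 1 in 20 groups drawn from a single normal population. The groups here each pool 2 FST classes, and the 10 genes share the same libraries. The rate therefore does not apply as it stands, and 5 cannot be read as an excess.

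Clock in CRS low 1 was 5.99 FPKM, while the other CRS libraries lay at 8.86 to 9.46, with a gap of 0.826 of the range. Per1 in naive high 1 was 13.3 FPKM with the next naive library at 10.02, and Per3 in the same library was 5.28 with the next at 4.02. Nr1d2 in naive low 3 was 25.3 FPKM with the next at 28.7. Dbp in CRS high 2 was 12.1 FPKM with the next at 14.3.

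No clock gene separated CRS from naive libraries upwards in 1 region and downwards in another.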

How the results depend on the processing

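No value of a clock gene that passed the threshold changed sign under any alternative run. Counts of clock genes called moved as follows. DESeq2 called 2 in LHb CRS against naive (main count 0), 3 in CRS high against naive low (1), 3 for any difference among the 4 LHb groups (0), 1 in vHippo (0), 1 in LH (0) and 2 for the mean CRS effect over 5 regions (0). For naive high against naive low (1), the count was 0 with limma on FPKM, with the transcript length offset and without the pancreas libraries. For CRS high against naive low (1), it was 0 with no filter, with limma on FPKM and without the pancreas libraries, and 2 in a fit of only the 6 libraries compared. Leaving out the pancreas libraries left CRS high with 1 library, and the Clock differences were 0.62 and 0.54, against 0.67 and 0.59 with all libraries. Without the choroid plexus libraries CRS low against naive low gave 1 (0). With 1 library left out at a time, the counts ranged over 0 to 2 in LHb CRS against naive, 0 to 1 in naive high against naive low, 0 to 2 in CRS high against naive low, 0 to 1 in CRS low against naive low, 0 to 1 for any difference among the LHb groups and 0 to 1 in LH CRS against naive. They ranged over 2 to 5 for naive vHippo (main count 4) and 1 to 3 for naive LH (3). The pair correlations passing adjustment were 0, and 2 on deviations from group means: Per1 with Fos in VTA and Dbp with Per3 in mPFC. DESeq2 called 772 genes against 273 in LHb CRS against naive, 1673 against 715 between the naive classes 1591 against 854 in CRS high against naive low, 1394 against 461 for any LHb difference, 336 against 0 in LH, 43 against 0 in vHippo and 57 against 5 for the mean CRS effect.

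Within a region, in 0 of 11 pairs of groups did every same-numbered pair of libraries correlate above 0.1 (-0.22 to 0.25). That rule cannot exclude that some libraries of equal number go together. In LHb, replicate 1 of CRS high correlated with that of CRS low (0.25) and naive low (0.15). Replicate 1 of CRS low and naive low correlated at 0.21, and these are the choroid plexus libraries. Other same-numbered pairs were negative, down to -0.22 in VTA. Libraries of different regions were not compared in this way, so whether they share animals was not tested. With the replicate block, 0 clock genes were called in LHb CRS against naive, 1 between naive classes, 1 in CRS high against naive low, 6 in naive VTA, 2 in naive LH and 8 for any naive difference among regions. Without the block the naive VTA count was 5 and the naive LH count 3; the other counts of clock genes called were equal with and without it. Every clock gene had at least 194 reads in each library; the number of libraries a group, an hour of collection not given in the sources used here and transcripts of neighbouring tissue limit these comparisons.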
